A study of Homo sapiens with 60 samples.

Results

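The genes described here are 7 members of the aryl hydrocarbon receptor (AhR) pathway in HT29 cells: CYP1A1, CYP1B1, AHRR, TIPARP, AHR, ALDH3A1 and ARNT. They were taken by gene symbol from a table of 60675 genes, of which 16356 had enough reads to be tested, and all 7 members were among these. The members were chosen by their place in the pathway and by the measured CYP1A1 levels, which differed among the vehicle libraries, so every value set against the vehicle is given below as a description, and calls counted there support nothing. HT29 is a human colorectal adenocarcinoma line.

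All cells were HT29 and were harvested after 24 h. The cultures given an extract received a hot water extract of Cinnamomi Cortex (cinnamon bark), Cnidii Rhizoma, Rehmanniae Radix Preparata (processed Rehmannia root), Astragali Radix (Astragalus root) or Paeoniae Radix (peony root), or of the herbal formulae Sagunja-tang or Samul-tang, each at 20, 100 and 500 µg/mL. There were 3 libraries per extract and dose, except for Paeoniae Radix, whose doses had a single library and were left out of all tests. The 3 vehicle libraries came from cells given DMSO, at 0.1% by the sample labels and at 2% by the design text, a difference that could not be settled. The design text adds that an extract with an IC20 (the concentration that lowers viability by a fixed small share) under the top dose was given at that concentration and dilutions of it; the labels used here list only the 3 doses above. The labels do not say that replicates were separate cultures, so each p-value measures the spread between libraries, which may be technical.

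The AhR is a transcription factor that waits in the cytoplasm in a chaperone complex until a small molecule binds it. It then enters the nucleus, pairs with ARNT and binds xenobiotic response elements, which raises CYP1A1 and CYP1B1, and also AHRR and TIPARP, which feed back to switch the receptor off. In the gut lining its ligands come from food and from tryptophan broken down by bacteria.

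Library totals lay between 20459346 and 36253747 expected counts in the extract libraries, and between 20701950 and 26614906 in the vehicle libraries. Mitochondrial genes took 5.84% to 12.6% of the counts. Of 10 colon epithelium markers 9 had a mean above 1 CPM (counts scaled to the library total), with KRT8 and KRT18 the most abundant, while CDX1, a colonic transcription factor, averaged 0.871 CPM. Of 8 fibroblast markers 1 had a mean above 1 CPM (COL1A1) and 4 were at 0 in vehicle replicate 1 (COL1A2, COL3A1, PDGFRA and THY1), and the list summed to 1.504 to 2.78 CPM in extract libraries and to 2.38, 1.83 and 2.36 CPM in vehicle libraries. Of 7 leukocyte markers 4 had a mean above 1 CPM (LYZ, CD68, CD14 and ITGAM) and 2 were at 0 in vehicle replicate 1 (PTPRC and CD3E), and the list, nearly all of it LYZ, summed to 1256 to 1731 CPM in extract libraries and to 1503, 1464 and 1481 CPM in vehicle libraries. Of 8 hepatocyte markers 1 had a mean above 1 CPM (SERPINA1, nearly all of the sum) and 2 were at 0 in vehicle replicate 1 (ALB and APOB), and the list summed to 321.3 to 511.6 CPM in extract libraries and to 440.7, 469.9 and 477.4 CPM in vehicle libraries. A split of the libraries into a first set of 27 and a second set of 30 was taken from earlier results of these data. On the first principal component (15.7% of the variance) the first set lay between -29.5 and -5.40 and the second above 0, except for Cinnamomi Cortex 500 replicate 2, which is in the second set and lay at -16.0, inside the range of the first. The first set held every vehicle, Cnidii Rhizoma and Rehmanniae Radix Preparata library, and from Astragali Radix and Cinnamomi Cortex those numbered 1. Sagunja-tang and Samul-tang libraries were all in the second set, so for them the set and the treatment cannot be told apart in a comparison with the vehicle. In bulk RNA, fewer cells that express a gene and less RNA per cell cannot be told apart.

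The short sequences that follow are the places in the promoters where the core of the xenobiotic response element, GCGTG on either strand, was found, and they are shown because CYP1A1, TIPARP and AHRR are direct targets in the textbook pathway yet took different values in these libraries. RefSeq promoter windows (build GRCh38.p14, 250 bases before the annotated start) were given for 5 of the 7 members, in 8 windows. CYP1B1 and ALDH3A1 had no entry. The capitals mark the core, GCGTG or its reverse complement CACGC, read along the strand of the gene.
CYP1A1, chr15:74725571-74725595, minus strand: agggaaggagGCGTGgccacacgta
AHRR, chr5:321674-321698, plus strand: cgggcggctcGCGTGccggggtggg
AHRR, chr5:322360-322377, plus strand: ggcGCGTGacaggcaggg
AHRR, chr5:322558-322582, plus strand: agaagggtggGCGTGtgcgcgcgtt
TIPARP, chr3:156674372-156674396, plus strand: cgagaaaggaCACGCcccctcgcgg
TIPARP, chr3:156674438-156674462, plus strand: aacgaacgcgCACGCgcgcgcaggg

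The stretches shown for both TIPARP matches and for AHRR at chr5:322558-322582 overlapped annotated exons of their genes. The CYP1A1 match also lay in an annotated exon of its gene. Of the 250 CYP1A1 bases, the 168 bases outside that exon held no match. They are shown to give the stretch of this window in which none was found. Sequence farther upstream than the windows was not read, so matches there are unknown for every member.
CYP1A1, chr15:74725611-74725778, minus strand: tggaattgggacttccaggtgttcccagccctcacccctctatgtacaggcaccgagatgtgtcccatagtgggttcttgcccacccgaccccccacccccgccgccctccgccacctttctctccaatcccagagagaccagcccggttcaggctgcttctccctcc

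Of all 35116 promoter windows of this length, 32.2% held GCGTG on at least 1 strand and 4.5% held the longer TNGCGTG. Among the member windows 4 of 8 held the core, and 1, the first AHRR window, held the longer form, which contains the core. The windows of AHR and ARNT held no match. These letters describe the windows and do not mark binding.

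CYP1A1 is an AhR-induced cytochrome P450 that oxidises aromatic compounds, and its mRNA serves as a common readout of the receptor. The gene lies on chromosome 15 at 74719542 to 74725610 of GRCh38, minus strand (ENSG00000140465). In the 57 extract libraries CYP1A1 ranged from 0.183 CPM in Cinnamomi Cortex 500 replicate 1 to 1.53 CPM in Rehmanniae Radix Preparata 500 replicate 3, with a median of 0.692 CPM. The 3 vehicle libraries had 5.75 CPM in replicate 1, 0.595 CPM in replicate 2 and 1.10 CPM in replicate 3. Replicate 1 stood above all 57 extract libraries, and the other two vehicle libraries lay inside their range.

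Vehicle replicate 1 held 152 CYP1A1 counts, with an exact Poisson 95% interval of 4.88 to 6.74 CPM. Replicate 2 held 14 counts, with an interval of 0.325 to 0.998 CPM, and replicate 3 held 22 counts, with an interval of 0.692 to 1.67 CPM. These intervals cover counting error only. The range over the vehicle libraries was 3.12 on the log2 CPM scale. Replicate 1 was 6.78 times the mean of the other two. Leaving it out, the range was 0.81.

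**Figure D1:**
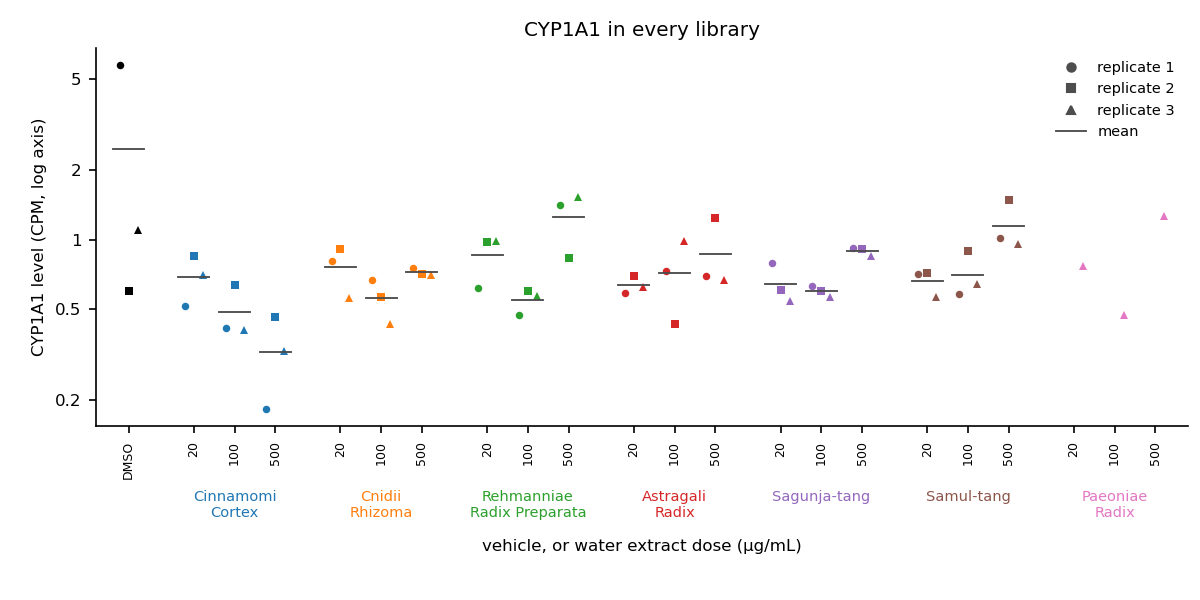
CYP1A1 level (CPM, log axis) in each of 60 libraries, with vehicle (DMSO) at the left and each extract from 20 to 500 µg/mL; symbols are replicate numbers and bars are means of groups of 3. Vehicle replicate 1 at 5.75 CPM stands above every extract library, the highest of which is 1.53 CPM.

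CYP1A1 was near the lower limit of detection in most libraries, with 4 to 41 counts each outside vehicle replicate 1. With Cinnamomi Cortex it had 0.515, 0.846 and 0.703 CPM at 20 µg/mL, 0.411, 0.633 and 0.404 CPM at 100 µg/mL and 0.183, 0.458 and 0.327 CPM at 500 µg/mL. With Astragali Radix it had 0.583, 0.697 and 0.620 CPM at 20 µg/mL, 0.731, 0.427 and 0.982 CPM at 100 µg/mL and 0.692, 1.24 and 0.664 CPM at 500 µg/mL. The Cinnamomi Cortex libraries at 500 µg/mL were all below those at 20 µg/mL, and those of Astragali Radix overlapped from dose to dose.

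With Cnidii Rhizoma CYP1A1 had 0.803, 0.912 and 0.559 CPM at 20 µg/mL, 0.669, 0.563 and 0.428 CPM at 100 µg/mL and 0.754, 0.706 and 0.698 CPM at 500 µg/mL. With Rehmanniae Radix Preparata it had 0.612, 0.978 and 0.987 CPM at 20 µg/mL, 0.467, 0.598 and 0.566 CPM at 100 µg/mL and 1.41, 0.827 and 1.53 CPM at 500 µg/mL. Both extracts had overlapping doses at 20 and 500 µg/mL. With Sagunja-tang it had 0.788, 0.603 and 0.539 CPM at 20 µg/mL, 0.630, 0.599 and 0.564 CPM at 100 µg/mL and 0.923, 0.909 and 0.850 CPM at 500 µg/mL. With Samul-tang it had 0.707, 0.715 and 0.560 CPM at 20 µg/mL, 0.581, 0.887 and 0.640 CPM at 100 µg/mL and 1.01, 1.48 and 0.954 CPM at 500 µg/mL. In both formulae all 3 libraries at 500 µg/mL lay above all 3 at 20 µg/mL. Neither change passed, with log2 fold changes of 0.48 with Sagunja-tang (adjusted p = 0.787, edgeR) and 0.79 with Samul-tang (adjusted p = 0.812, edgeR). The share of all tested genes whose doses separated like this, up or down, is not given here.

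CYP1B1 and TIPARP were also highest in vehicle replicate 1. CYP1B1, a second AhR-induced cytochrome P450, had 31.1 to 60.6 CPM in the extract libraries (median 51.1 CPM). Its vehicle libraries had 87.8, 55.3 and 53.5 CPM. Replicate 1 was 1.61 times the mean of the other two and again above all 57 extract libraries. TIPARP, which ADP-ribosylates the receptor and limits it, had 73.2 to 100.6 CPM in extract libraries (median 92.4 CPM) and 114.8, 96.9 and 97.5 CPM in vehicle libraries. Its replicate 1 was 1.18 times the mean of the other two, and above all 57 extract libraries. For TIPARP, 903 tested genes (5.52%) had a larger excess of replicate 1 over the higher of the other two. How many genes had replicate 1 above all 57 extract libraries was not counted.

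In the remaining 4 members vehicle replicate 1 was not the highest of the vehicle libraries. AHRR, the repressor that competes for ARNT, had 4.59 to 7.80 CPM in extract libraries (median 6.07 CPM) and 6.21, 6.29 and 6.17 CPM in vehicle libraries. ALDH3A1, an aldehyde dehydrogenase of the AhR gene battery, had 23.1 to 44.6 CPM in extract libraries (median 27.8 CPM) and 26.9, 27.2 and 28.0 CPM in vehicle libraries. For both, the vehicle libraries sat inside the extract range. AHR itself had 104.3 to 135.1 CPM in extract libraries (median 121.4 CPM) and 132.5, 152.3 and 140.2 CPM in vehicle libraries, so 2 of the vehicle libraries, replicates 2 and 3, lay above all extract libraries. ARNT, the partner of the receptor, had 30.7 to 42.9 CPM in extract libraries (median 36.5 CPM) and 34.9, 36.6 and 40.3 CPM in vehicle libraries. In AHR and ARNT replicate 1 was the lowest of the 3 vehicle libraries, at 0.906 and 0.909 times the mean of the other two.

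**Figure D2:**
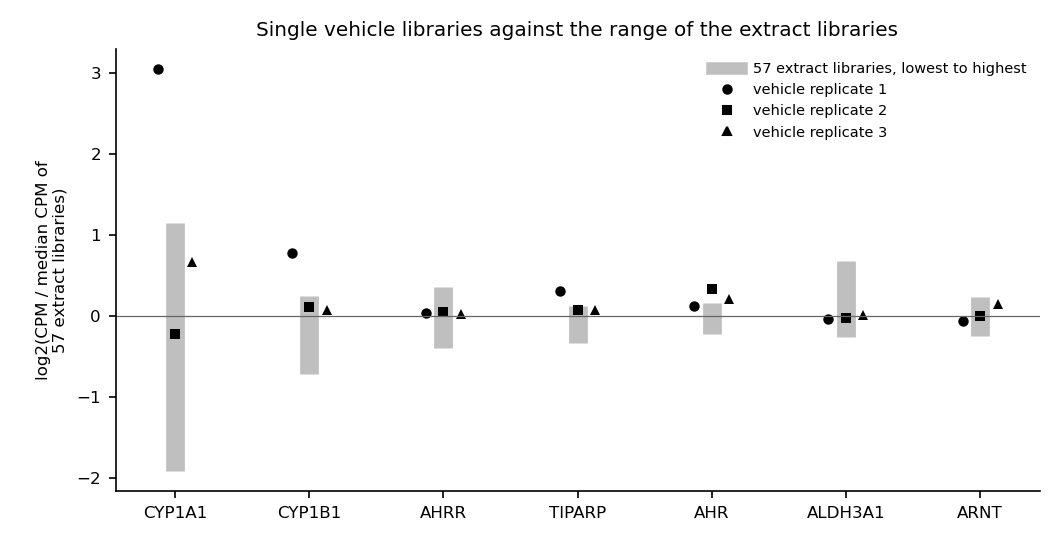
Each vehicle library (symbols) and the span of the 57 extract libraries (grey bars), as log2 of CPM over the median CPM of the extract libraries, for the 7 members. Vehicle replicate 1 (circle) lies above the bar for CYP1A1, CYP1B1 and TIPARP; AHR has replicates 2 and 3 above its bar.

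Vehicle replicate 1 did not stand apart in how many genes deviated. In it, 302 tested genes lay above both other vehicle libraries by 0.5 or more on the log2 scale and 388 lay below. The counts for replicate 2 were 303 above and 351 below, and for replicate 3 they were 386 and 521. A name filter left out symbols styled as clones, long non-coding RNAs, antisense genes or pseudogenes. It also left out every symbol that starts with AC, AL, AP or AF. The member ALDH3A1, and ALDH1A3 of the other AhR targets read below, were therefore not ranked here or by likeness to CYP1A1. The rest were ranked by the excess of replicate 1 over the higher of the other two. Among those with a mean log2 CPM of at least 0, the top 5 were ZACN, ATP6V1G2-DDX39B, RAB43, CLDN23 and CYP1B1. CYP1A1, with an excess of 2.31, lay below that level and outside the rule; over all tested genes 12 had a larger excess than CYP1A1 and 167 a larger one than CYP1B1. ZACN, ATP6V1G2-DDX39B and RAB43 also varied widely among extract libraries, ZACN from 0.0352 to 20.7 CPM. Vehicle replicate 1 had 8.71% of its counts on mitochondrial genes, against 9.89% and 11.4% in the other two vehicle libraries; the part of that in the result was not tested.

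Levels were also divided by the merged length of all annotated exons of each gene, which can exceed the length of a transcript. The mean level in vehicle libraries was then 20.4 CPM per kb for TIPARP, 17.5 for AHR, 10.9 for CYP1B1, 6.99 for ALDH3A1, 5.72 for ARNT, 0.810 for AHRR and 0.723 for CYP1A1. The SDs over 3 libraries were 2.01, 1.24, 3.21, 0.145, 0.424, 0.00775 and 0.828 CPM per kb in the same order. Of the neighbours in this order, AHRR and CYP1A1 overlapped between libraries; the other neighbouring genes did not.

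Among genes that passed the name filter, CYP1B1 was the most like CYP1A1 across the 60 libraries, with a Pearson correlation of log2 CPM of 0.722. Without vehicle replicate 1 the correlation was 0.594. The next genes were ADGRF1 at 0.507, DOP1A at 0.495, ANKDD1A at 0.476 and TIPARP at 0.465. The value for TIPARP was 0.225 when vehicle replicate 1 was left out. In deviations from group means over 57 libraries, CYP1B1 led again at 0.55, and this correlation was -0.17 without that library; RNASEH2A at 0.491, GPNMB at 0.476, SAPCD1 at 0.469 and HEXA at 0.455 followed. Libraries share depth and treatment, so these values describe this set of libraries.

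**Figure D3:**
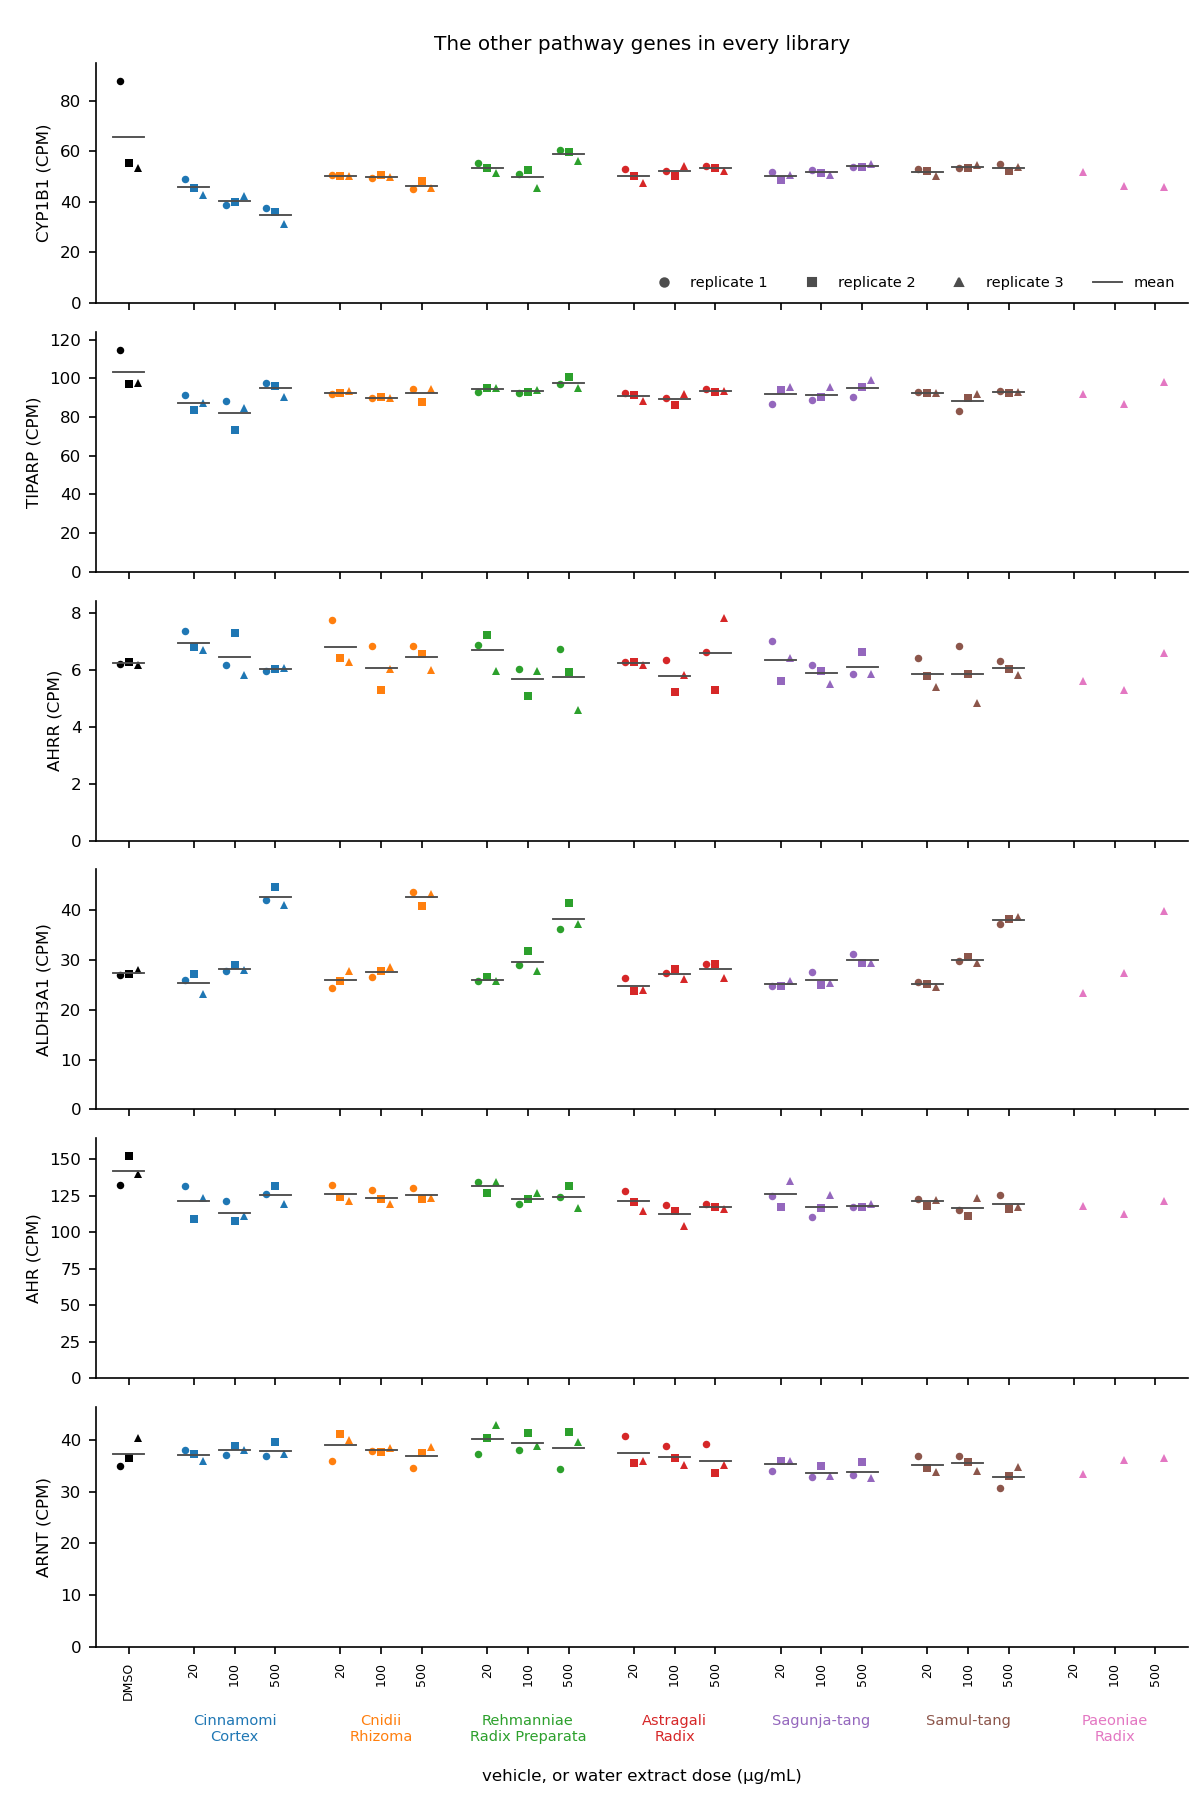
CPM of CYP1B1, TIPARP, AHRR, ALDH3A1, AHR and ARNT in every library (linear axes from 0), laid out as in the CYP1A1 plot. ALDH3A1 is higher at 500 µg/mL of Cinnamomi Cortex, Cnidii Rhizoma, Rehmanniae Radix Preparata and Samul-tang, and CYP1B1 is lower at 500 µg/mL of Cinnamomi Cortex.

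Set against the vehicle, CYP1A1 was lower in all 18 comparisons of an extract and dose, by log2 fold changes of -2.90 to -1.03. Without vehicle replicate 1 the range was -1.30 to 0.58 and 13 of 18 were negative. Cinnamomi Cortex at 500 µg/mL gave -2.90 with 3 vehicle libraries and -1.30 with 2, and it was the lowest of the 18 in both. CYP1B1 ranged from -0.92 to -0.16 with all 3 vehicle libraries and from -0.64 to 0.11 without replicate 1. TIPARP ranged from -0.33 to -0.08, and from -0.25 to 0.0035 without it. The sign of the CYP1A1 value thus depended on 1 library for 5 of the 18 comparisons.

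AHR did not depend on that library. It ranged from -0.33 to -0.10 with all 3 vehicle libraries and from -0.38 to -0.15 without replicate 1, and all 18 values were negative either way. With a term for the 2 library sets, AHR with Sagunja-tang at 20, 100 and 500 µg/mL was -0.07, -0.17 and -0.16, and without the term -0.17, -0.27 and -0.26. With Samul-tang it was -0.12, -0.18 and -0.14 with the term, and -0.23, -0.28 and -0.24 without it. Only Cinnamomi Cortex and Astragali Radix had libraries in both sets, so the term rests on them. ALDH3A1 was high at 500 µg/mL in 4 extracts, the largest value being 0.64. Counted as calls at an adjusted p of 0.05 (edgeR), 57 of the 126 member values against the vehicle passed, and 24 passed without vehicle replicate 1. Of all tested genes, the share called at 20, 100 and 500 µg/mL was 1.71%, 8.08% and 12.9% with Cinnamomi Cortex, 0.293%, 0.147% and 1.48% with Cnidii Rhizoma, and 0.434%, 0.208% and 0.636% with Rehmanniae Radix Preparata. It was 1.39%, 2.51% and 3.58% with Astragali Radix, 18.5%, 16.6% and 20.2% with Sagunja-tang, and 11%, 21.9% and 18.5% with Samul-tang. CYP1A1 itself held 17 of the 57, and nothing is read from the 57 or from the 24. With the set term 31 passed.

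**Figure D4:**
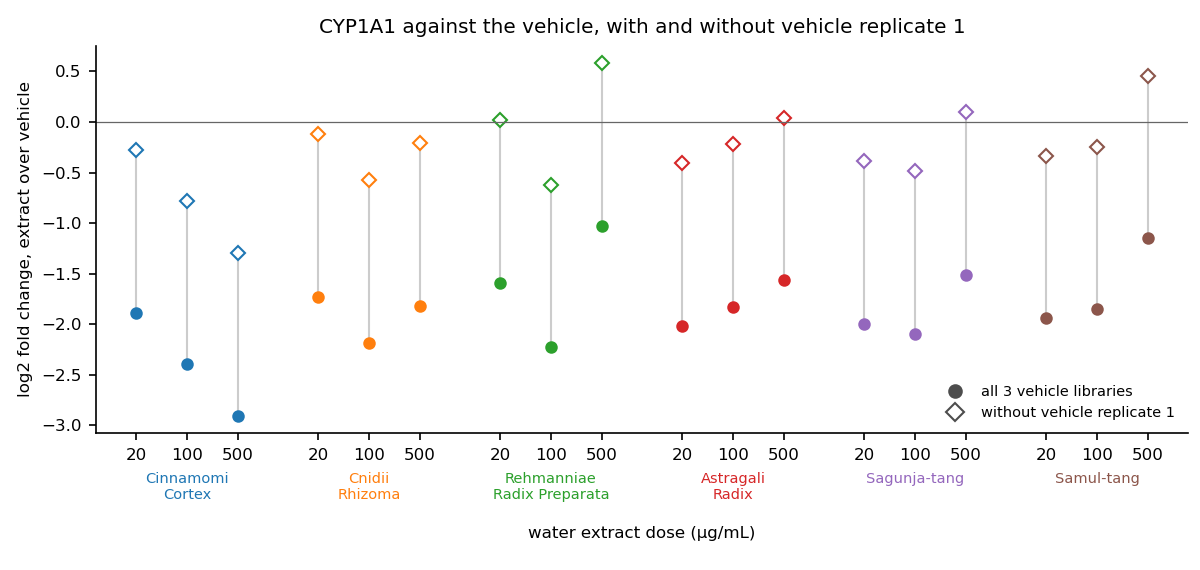
CYP1A1 log2 fold change, extract over vehicle, for 6 extracts at 3 doses, with all 3 vehicle libraries (filled circles) and without vehicle replicate 1 (open diamonds). All filled points are below -1, and the open points lie between -1.30 and 0.58.

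The extracts could be compared with each other by dose without any vehicle library. In 500 against 20 µg/mL, 5 of 42 member values passed an adjusted p of 0.05 (edgeR quasi-likelihood, Benjamini-Hochberg over all 16356 genes within a comparison). ALDH3A1 rose in 4 extracts and CYP1B1 fell in 1. No other member passed in any extract. Of all tested genes, 10.2% were called with Cinnamomi Cortex, 0.428% with Cnidii Rhizoma, 0.177% with Rehmanniae Radix Preparata, 0.141% with Samul-tang, 0.0734% with Astragali Radix and 0.00611% with Sagunja-tang, so in the last 5 extracts few genes of any kind passed.

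ALDH3A1 oxidises aldehydes from lipid peroxidation and drugs. With Cinnamomi Cortex it had 41.9, 44.6 and 41.0 CPM at 500 µg/mL, against 25.9, 27.2 and 23.1 CPM at 20 µg/mL. The log2 fold change was 0.74 (SE 0.06, adjusted p = 5.43e-14, edgeR), and all 3 libraries at 500 µg/mL lay above all 3 at 20 µg/mL. With Cnidii Rhizoma it had 43.6, 40.8 and 43.1 CPM at 500 µg/mL, against 24.4, 25.7 and 27.7 CPM at 20 µg/mL, a log2 fold change of 0.71 (SE 0.05, adjusted p = 5.99e-13, edgeR). The libraries did not overlap. With Rehmanniae Radix Preparata it had 36.2, 41.4 and 37.1 CPM at 500 µg/mL, against 25.7, 26.5 and 25.6 CPM at 20 µg/mL, a log2 fold change of 0.56 (SE 0.06, adjusted p = 8.51e-09, edgeR). With Samul-tang it had 37.2, 38.1 and 38.5 CPM at 500 µg/mL, against 25.6, 25.1 and 24.6 CPM at 20 µg/mL, a log2 fold change of 0.60 (SE 0.06, adjusted p = 3.5e-10, edgeR). In neither extract did the doses overlap.

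Sagunja-tang and Astragali Radix gave smaller values for ALDH3A1 that did not pass. Sagunja-tang had 31.1, 29.4 and 29.4 CPM at 500 µg/mL, against 24.7, 24.8 and 25.8 CPM at 20 µg/mL, a log2 fold change of 0.25 (SE 0.06, 95% interval 0.14 to 0.37, adjusted p = 0.0703, edgeR). Astragali Radix had 29.2, 29.2 and 26.4 CPM at 500 µg/mL, against 26.4, 23.7 and 24.0 CPM at 20 µg/mL, a log2 fold change of 0.19 (SE 0.06, 95% interval 0.08 to 0.30, adjusted p = 0.438, edgeR). The Sagunja-tang value passed under 4 alternatives, with adjusted p from 0.00331 to 0.0358. At 100 µg/mL no member passed in any extract (edgeR), 5 of 42 values had an unadjusted p under 0.05, and DESeq2 called none; of all genes, 0.00611% were called with Cinnamomi Cortex and none with the others.

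CYP1B1 moved the other way with Cinnamomi Cortex. It had 49.0, 45.4 and 42.7 CPM at 20 µg/mL, 38.5, 40.1 and 42.3 CPM at 100 µg/mL and 37.7, 35.8 and 31.1 CPM at 500 µg/mL. The log2 fold change of 500 against 20 µg/mL was -0.39 (SE 0.09, adjusted p = 0.0025, edgeR), with no overlap between these doses. In the other 5 extracts its log2 fold change lay between -0.12 and 0.14, none of which passed. CYP1A1 with Cinnamomi Cortex had a log2 fold change of -1.02 (SE 0.54, 95% interval -2.07 to 0.04, adjusted p = 0.248, edgeR). The vehicle libraries enter the estimated spread of this fit. Fitted on the 54 extract libraries, a choice made after the data were seen, CYP1A1 with Cinnamomi Cortex gave the same -1.02 with an adjusted p of 0.0402 (edgeR). With a replicate block within extract it also passed, at -1.07 with an adjusted p of 0.0163 (edgeR). In that extract the replicate number follows the library set. CYP1A1 passed here in no other setting tried, and DESeq2 gave -1.04 with no adjusted p.

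TIPARP, AHRR, AHR and ARNT did not pass at 500 against 20 µg/mL in any extract, with log2 fold changes between -0.21 and 0.12. TIPARP with Cinnamomi Cortex passed with a replicate block within extract, at 0.12 with an adjusted p of 0.0238 (edgeR); in that extract the replicate number follows the library set. The widest of their 95% intervals ran from -0.46 to 0.03, for AHRR with Rehmanniae Radix Preparata.

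**Figure D5:**
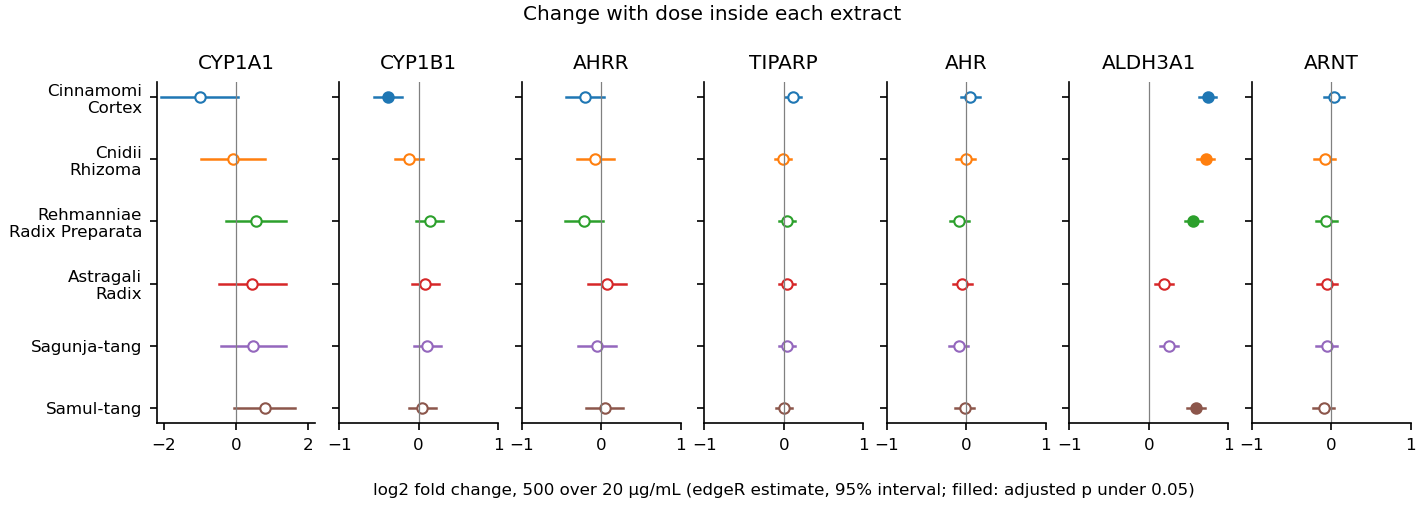
Log2 fold change of 500 over 20 µg/mL for each member (panels) and extract (rows), with 95% intervals; filled points passed an adjusted p of 0.05, and the CYP1A1 panel has a wider axis. ALDH3A1 is filled in 4 extracts and CYP1B1 in 1.

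Extracts were then compared at matched doses in the 3 pairs the sample codes put side by side, each at 3 doses, which gave 63 member values. At 500 µg/mL Cinnamomi Cortex had 37.7, 35.8 and 31.1 CPM of CYP1B1, against 54.2, 53.2 and 52.1 CPM with Astragali Radix, a log2 fold change of -0.61 (SE 0.09, adjusted p = 2.15e-06, edgeR). ALDH3A1 at the same dose was 41.9, 44.6 and 41.0 CPM with Cinnamomi Cortex, against 29.2, 29.2 and 26.4 CPM with Astragali Radix, a log2 fold change of 0.59 (SE 0.06, adjusted p = 2.6e-11, edgeR). Neither gene overlapped between the extracts. Of all genes 10.8% were called in this pair. CYP1A1 had a log2 fold change of -1.34 (SE 0.52, 95% interval -2.36 to -0.32, adjusted p = 0.0949, edgeR), which passed at 0.00335 without the vehicle libraries.

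At 500 µg/mL ALDH3A1 had 31.1, 29.4 and 29.4 CPM with Sagunja-tang, against 37.2, 38.1 and 38.5 CPM with Samul-tang, a log2 fold change of -0.34 (SE 0.05, adjusted p = 0.000106, edgeR), with no overlap. Of all genes 0.318% were called in this pair. Between Cnidii Rhizoma and Rehmanniae Radix Preparata at 500 µg/mL no member passed (edgeR; 2 of 7 had an unadjusted p under 0.05, 0.147% of all genes were called, and DESeq2 also called none). CYP1B1 had 45.2, 48.2 and 45.4 CPM with Cnidii Rhizoma, against 60.6, 59.6 and 56.0 CPM with Rehmanniae Radix Preparata, a log2 fold change of -0.35 (95% interval -0.52 to -0.17, adjusted p = 0.105, edgeR). Without the vehicle libraries this CYP1B1 value had an adjusted p of 0.00019. At 100 µg/mL CYP1B1 had 38.5, 40.1 and 42.3 CPM with Cinnamomi Cortex, against 52.2, 50.01 and 54.1 CPM with Astragali Radix, without overlap, a log2 fold change of -0.37 (SE 0.09, adjusted p = 0.152, edgeR). It passed with no filter on low counts (adjusted p = 6.75e-06, edgeR) and without the vehicle libraries (adjusted p = 0.000217, edgeR). At 100 and 20 µg/mL no member passed in any pair (edgeR), and DESeq2 also called none. An unadjusted p under 0.05 was found at 100 µg/mL for 2 of 7 members between Cinnamomi Cortex and Astragali Radix, 0 between Cnidii Rhizoma and Rehmanniae Radix Preparata and 1 between Sagunja-tang and Samul-tang, and for none at 20 µg/mL. Of all genes 0.0673%, 0% and 0.251% were called at 100 µg/mL and 0%, 0% and 0.238% at 20 µg/mL, for Cinnamomi Cortex over Astragali Radix, Cnidii Rhizoma over Rehmanniae Radix Preparata and Sagunja-tang over Samul-tang.

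Whether the dose change itself differed between the extracts of a pair was tested after the data were seen. Between Cinnamomi Cortex and Astragali Radix, the change from 20 to 500 µg/mL differed for CYP1B1 by -0.47 (SE 0.13, adjusted p = 0.0246, edgeR) and for ALDH3A1 by 0.55 (SE 0.08, adjusted p = 5.7e-06, edgeR), with 2.57% of all genes called. The CYP1B1 difference did not pass when any of 4 single libraries was left out: Cinnamomi Cortex 20 replicate 1, Cinnamomi Cortex 500 replicate 3, Astragali Radix 500 replicate 1 or Astragali Radix 20 replicate 3. In the other pairs 0 members passed (edgeR; 1 of 7 had an unadjusted p under 0.05 in each), with 0.0122% of all genes called for Cnidii Rhizoma minus Rehmanniae Radix Preparata and 0% for Sagunja-tang minus Samul-tang.

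The wider pathway was read in lists chosen with earlier results of these data known. Of all tested genes, 10.2% were called at 500 against 20 µg/mL with Cinnamomi Cortex, 0.428% with Cnidii Rhizoma and 0.177% with Rehmanniae Radix Preparata. The share was 0.141% with Samul-tang, 0.0734% with Astragali Radix and 0.00611% with Sagunja-tang. Among 15 tested of 18 other AhR targets, 5 rose and 2 fell at 500 against 20 µg/mL with Cinnamomi Cortex, 4 rose with Cnidii Rhizoma, 3 with Samul-tang, 1 rose and 1 fell with Rehmanniae Radix Preparata, and none passed with Astragali Radix or Sagunja-tang. With Cinnamomi Cortex UGT1A6, a conjugating enzyme, rose by 0.61 (log2) and NQO1, a quinone reductase, by 0.44, while ALDH1A3 fell by 0.94 and PTGS2, the inducible cyclooxygenase, by 0.58. NQO1 is also in the NRF2 list, and the UGT1A genes share exons, so their counts can be split between them and are uncertain. The median of the list was 0.10 with Cinnamomi Cortex, and that of all genes was 0.00.

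Among 9 tested of 10 partners of the receptor complex, PTGES3 (p23) and HSP90AB1 rose by 0.17 and 0.11 with Cinnamomi Cortex and NCOA3, a coactivator, fell by 0.18. In that comparison, 500 against 20 µg/mL, 10.2% of all tested genes were called. No partner passed in the other 5 extracts. Of 8 tested tryptophan and kynurenine enzymes, which make AhR ligands, none passed at 500 against 20 µg/mL in any extract. Between Sagunja-tang and Samul-tang, 1 of the 8 was higher with Sagunja-tang at each of 500, 100 and 20 µg/mL (edgeR), and none was lower. Of all tested genes 0.318%, 0.251% and 0.238% were called there. At 500 against 20 µg/mL, among 4 tested of 10 genes of the PXR and CAR list, CYP3A5 fell by 0.23 with Cinnamomi Cortex. It fell by 0.27 with Rehmanniae Radix Preparata.

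The NRF2 list, the other xenobiotic response that shares NQO1, gave a larger count. Of its 14 genes, 14 rose with Cinnamomi Cortex and with Cnidii Rhizoma, 9 with Samul-tang, 6 with Rehmanniae Radix Preparata, 1 with Astragali Radix and 0 with Sagunja-tang, where its median was 0.14. Its median log2 fold change was 0.58 with Cinnamomi Cortex and 0.42 with Cnidii Rhizoma, with AKR1C2, an aldo-keto reductase, at 1.61 and 0.92. Over the 6 comparisons, 62 gene values of these lists passed, counting NQO1 once. The share of all tested genes called ran from 0.00611% with Sagunja-tang to 10.2% with Cinnamomi Cortex.

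Paeoniae Radix, with 1 library per dose and no test, had 23.4, 27.3 and 39.8 CPM of ALDH3A1 at 20, 100 and 500 µg/mL. CYP1A1 had 0.765, 0.470 and 1.27 CPM and CYP1B1 had 51.8, 46.1 and 45.8 CPM at those doses.

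Some members share annotated exonic bases with neighbours, and shared reads were not measured. AHR shares 2373 exonic bases with the protein-coding AC019117.2 on the same strand, for which no counts were given. AHRR shares 244 exonic bases with PDCD6 on the same strand, which had a mean of 4777 counts against 163 for AHRR. CYP1B1 shares 678 bases with the opposite-strand CYP1B1-AS1, and RMDN2 shares 96. The authors used a directional kit, but whether counting used the strand is not given in the sources used here.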

How the data were processed

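The authors deposited RSEM expected counts per gene for HT29 libraries. Per the labels' protocols, total RNA (RIN above 7) was made into directional MGIEasy libraries with 100 bp paired-end reads; the submitters' processing notes name the aligner STAR 2.7.3a and the quantifier RSEM 1.3.3, beside read trimming with Trim Galore 0.6.5, and the build GRCh38. The table holds 273 columns; 60 were used and 213 were not. The expected counts were rounded to whole numbers. Symbols were matched by Ensembl ID in supplied gene name lists and GENCODE 29. The members and lists were chosen with earlier results of these data known. Genes passed filterByExpr (minimum count 10). CPM used TMM factors. edgeR 4.0.16 quasi-likelihood tests were fitted on 57 libraries in 19 groups, with Benjamini-Hochberg adjustment within each comparison. DESeq2 1.42.0, other factors, no filter, replicate blocks, a library set term, no vehicle libraries and leaving out single libraries were tried. The code was checked on simulated data. The named genes are the 7 members, at most 4 called genes per list and comparison, and genes ranked after the name filter. The ranked genes are the 5 most like CYP1A1 by each measure and the 5 with the largest excess in vehicle replicate 1. For that excess only genes with a mean log2 CPM of at least 0 were ranked.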

Additional observations from a re-analysis of the deposited data

Results flagged for a closer look

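Between Cinnamomi Cortex and Astragali Radix, the change of CYP1B1 from 20 to 500 µg/mL differed by -0.47 (log2), and that of ALDH3A1 by 0.55, in the test of the difference itself, which for CYP1B1 did not pass when any of 4 single libraries was left out. ALDH3A1 was 39.8 CPM in the single Paeoniae Radix library at 500 µg/mL, a library in no comparison, and 26.9, 27.2 and 28.0 CPM in the vehicle libraries.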

How the results depend on the processing

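The 5 member calls in 500 against 20 µg/mL became 8 with a replicate block within each extract, and the 0 calls in 100 against 20 µg/mL became 1. The shares of all genes called under the other settings are not given here. Nothing about the members or lists is therefore read from the changed counts in this section. The 3 calls between extracts at 1 dose became 6 with no filter on low counts, 6 without the vehicle libraries (chosen after the data were seen) and 5 with only the libraries of the extracts compared. The 57 calls against the vehicle became 31 with a library set term, and leaving out single libraries gave 24 to 59, the 24 without vehicle replicate 1. With single libraries left out, CYP1A1 against the vehicle ranged from -2.05 to 0.016 for Rehmanniae Radix Preparata at 20 µg/mL, -2.03 to 0.041 for Astragali Radix at 500 µg/mL, -1.98 to 0.094 for Sagunja-tang at 500 µg/mL and -1.61 to 0.46 for Samul-tang at 500 µg/mL; the sign changed without vehicle replicate 1 only. Without that library Rehmanniae Radix Preparata at 500 µg/mL, which was -1.03 and not called, was 0.58. The vehicle range of CYP1A1 was 0.81 to 3.12. The 2 calls in the test of differing dose changes became 4 with the block within extract, and 1 to 2 with single libraries left out. The 62 list values became 96 with the block within extract. Of the 10 places in the 2 lists of genes most like CYP1A1, both led by CYP1B1, 2 were shared with Spearman correlation and 1 without vehicle replicate 1. Same-numbered libraries deviated together in every pair in 1 comparison only (Cinnamomi Cortex against Astragali Radix at 100 µg/mL, correlations 0.25, 0.116 and 0.152), where the additive block changed no member call. Elsewhere the numbers were not taken as pairing, though in Cinnamomi Cortex and Astragali Radix number 1 is in the first library set and the others in the second. The additive replicate block gave 6 calls in 500 against 20 µg/mL. The cause of these changes was not tested. Depth limits CYP1A1 most, with 4 counts in its lowest library.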
